A study of Homo sapiens with 6 samples.

Results

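The genes described here encode the small ribosomal subunit processome and the factors that carry its product on to the mature small subunit. They are 42 genes, taken by name from a list of known processome and pre-40S proteins and joined by gene identifier to the deposited count table, where they stand under 48 of 63677 identifiers. No measured value entered the rule. The 6 further identifiers, of WDR46, EMG1 and CIRH1A, had 0 counts in all samples, and each of the 42 genes had enough counts to be tested. The cells were RPMI-8402, an established human cell line from an acute lymphoblastic leukaemia of T cells (T-ALL), and all samples carried stably expressed Cas9 and the genotype label MYC_KO. In the 3 DOX samples doxycycline had been given for 72 h to switch on guide RNAs against MYC. The 3 DMSO samples had been given DMSO, the solvent, for the same time and were the controls. No sample is labelled as having doxycycline but no guides, so an effect of the drug itself and an effect of the guides cannot be told apart. Whether each replicate was its own culture is not stated, so p-values speak only of the spread among these 6 samples, which may be a technical one. The sources used here do not give the drug dose, the sequences of the guides, or whether the RNA was depleted of rRNA or selected for polyadenylated transcripts.

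The processome, also called the 90S pre-ribosome, forms in the nucleolus on the long precursor RNA that RNA polymerase I makes. Its proteins join in modules around the U3 small nucleolar RNA, which base-pairs with the precursor, and they fold, modify and cut it so that the 18S rRNA of the small subunit is released. The pre-40S particle that remains is exported to the cytoplasm, where kinases and a final endonuclease complete it. MYC, the transcription factor that the guides target, binds as a dimer with MAX to the E-box letters CACGTG, and genes of ribosome production are among its best known targets.

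Each library held between 23121255 and 26214598 gene counts. The level used below is CPM, counts per 1000000 counts of a library scaled by the trimmed mean of M values (TMM), which is a share of a library's RNA and not an amount per cell; in bulk RNA, fewer cells of a type and less RNA per cell cannot be told apart. The quasi-likelihood test of edgeR was applied to 15492 genes, and a gene is called lower or higher at a Benjamini-Hochberg adjusted p under 0.05, written below as the edgeR adjusted p. By this rule 2408 genes were lower and 2137 higher in DOX than in DMSO samples. Under upper-quartile scaling the split was 1585 lower and 2871 higher, and with library size alone it was 1606 lower and 2758 higher. Of 16 T lineage and T-ALL markers all had counts, with summed levels of 4040 to 4188 CPM in DOX and 3928 to 4001 CPM in DMSO samples. LMO2 had at most 4 counts in any sample and CD1A at most 11, and neither was tested. Of the 14 tested, CD7, NOTCH1 and CD5 were higher in DOX samples (log2 fold changes 0.48, 0.35 and 0.23). CD3G was lower (-0.24), beside 13.8% of all tested genes higher and 15.5% lower. Summed levels of 5 B cell markers were 16.1 to 17.1 CPM in DOX and 11.6 to 12.9 CPM in DMSO samples, with MS4A1 at 0. The 6 myeloid markers summed to 2.15 to 2.21 CPM in DOX and 1.08 to 1.28 CPM in DMSO samples, with CD33 at 0. Of the 4 fibroblast and epithelial markers COL1A1 alone had counts, at 46.9 to 52.5 CPM in DOX and 40.1 to 40.5 CPM in DMSO samples. The part of these markers in the results below was not tested.

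MYC itself had 459, 431 and 431 CPM in the DOX samples, against 409, 422 and 407 CPM in the DMSO samples. All 3 DOX samples stood above all 3 DMSO samples, by a log2 fold change of 0.09 (SE 0.0489) that did not pass the test (edgeR adjusted p = 0.160). The same comparison passed as a rise under upper-quartile scaling (0.14, adjusted p = 0.0357) and with library size alone (0.14, adjusted p = 0.0281). Cas9 cuts DNA, and a gene count does not read small insertions or deletions, so the level of MYC RNA does not check whether the gene was edited in the libraries labelled DOX.

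Of the 42 processome genes, 32 were lower in DOX than in DMSO samples and 0 were higher, beside 15.5% of all tested genes lower and 13.8% higher. The median log2 fold change of the 42 was -0.23, with quartiles of -0.29 and -0.15, while that of all tested genes was -0.00. On the linear scale the median change was -14.6%. Single genes lay between -0.47 for PNO1 and 0.02 for TBL3, and 41 of 42 were below 0, beside 50.1% of all tested genes. The summed level of the 42 genes was 3003, 2985 and 2966 CPM in the DOX samples, against 3456, 3510 and 3371 CPM in the DMSO samples. The DOX sum was thus 86.6% of the DMSO sum, and the 3 samples of each group lay closer to each other than to any sample of the other group. In 36 of the 42 genes each DOX sample lay below each DMSO sample, which held for 21.0% of all tested genes. Under upper-quartile scaling 24 of 42 were lower, beside 10.2% of genes, and with library size alone 23, beside 10.4%; 0 were higher in both. With no filter on low counts 31 were lower, beside 8.34% of genes lower and 6.33% higher. With each replicate left out in turn 25 to 34 were lower and 0 higher, beside 11.2% to 14.7% of genes lower and 9.76% to 12.7% higher. The 42 genes share these libraries and are not replicates of the comparison, so the counts and medians are descriptions.

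**Figure D1:**
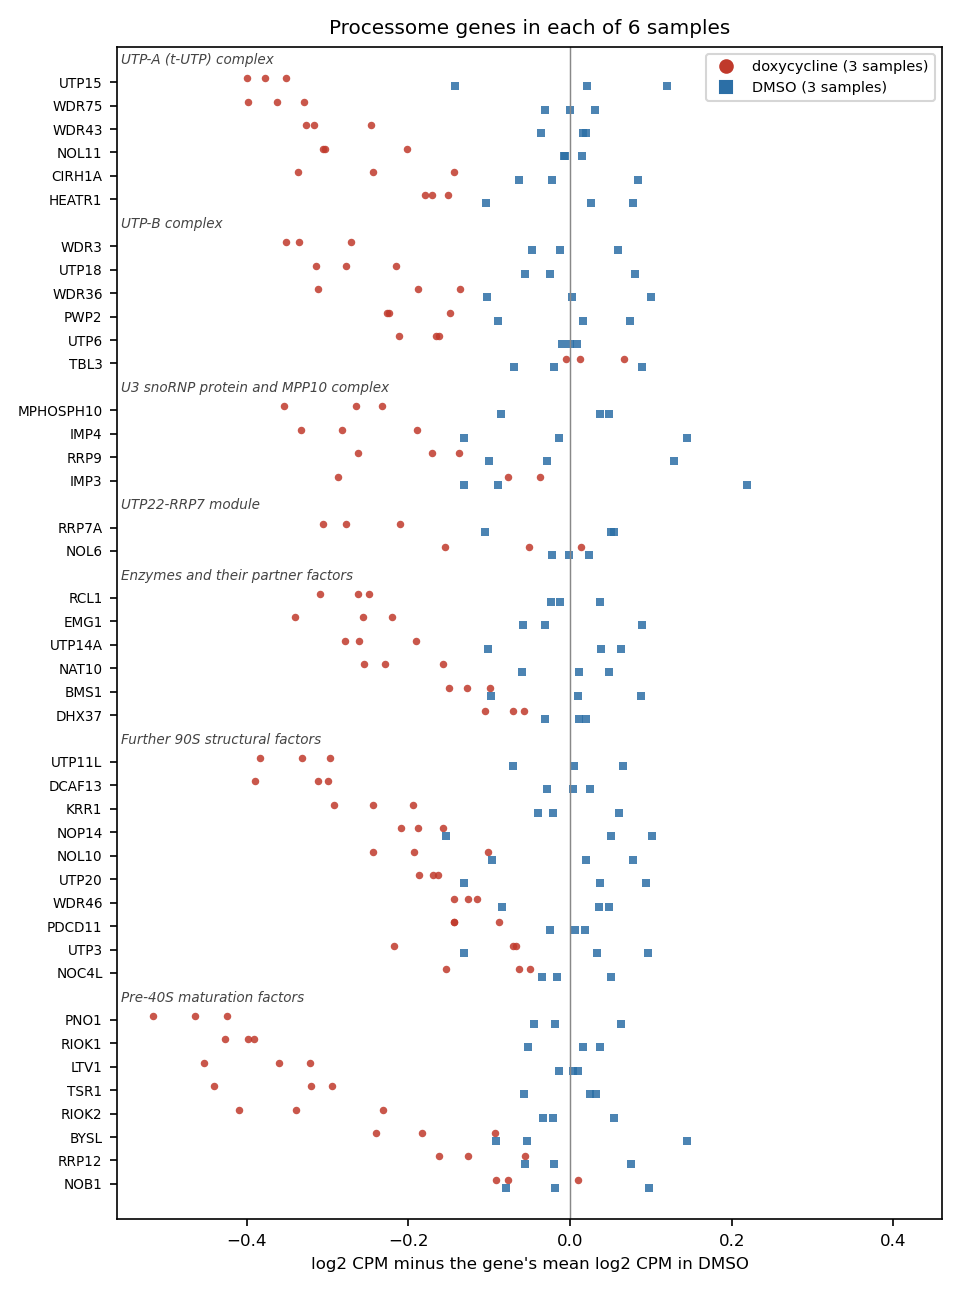
Level of each of the 42 processome genes in the 3 DOX samples (red circles) and the 3 DMSO samples (blue squares), as log2 CPM minus the gene's mean log2 CPM in DMSO; genes are grouped by role and ordered by fold change within a group. In 36 genes the red circles all lie left of the blue squares, and in TBL3, NOB1, NOL6, IMP3, UTP3 and RRP12 the groups overlap.

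Because the guides target MYC, promoter windows of the processome genes were searched for CACGTG, which reads the same on both strands, and for CACGCG on either strand, a variant E-box; matches of the pair may overlap. RefSeq windows on GRCh38.p14, from 250 bases before to 50 bases after the gene start, matched 38 of the 42 genes; MPHOSPH10, NOL10, DCAF13 and RRP12 had none. CACGTG stood in the window of 17 of 38 genes (44.7%), beside 8.77% of 27305 genes with a window and 10.9% of the 15842 protein-coding ones. CACGCG stood in 9 of 38 (23.7%), beside 13.5% and 18.1% of the same sets. Of the 19 CACGTG matches, 12 lay wholly within the stretch from 60 bases before to 30 bases after the start, with their first bases between positions -16 and 16, and that stretch wholly held 38.0% of the 2821 matches in all windows. It is printed for 7 genes, the one with the smallest p in each role group among those with CACGTG wholly inside it. It is also printed for RIOK1 and WDR75, which have the smallest p among genes with no CACGTG in the window. The window of WDR75 has CACGCG at position 41, beyond the printed stretch, and that of RIOK1 has neither motif. Each line reads 5′ to 3′ on the gene's strand, and capitals mark CACGTG.
WDR43: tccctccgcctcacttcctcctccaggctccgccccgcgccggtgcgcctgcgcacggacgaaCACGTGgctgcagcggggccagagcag
UTP18: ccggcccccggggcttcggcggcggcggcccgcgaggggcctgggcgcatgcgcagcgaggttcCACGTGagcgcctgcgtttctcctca
IMP4: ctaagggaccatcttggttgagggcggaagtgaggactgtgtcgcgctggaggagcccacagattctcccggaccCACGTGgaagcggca
NOL6: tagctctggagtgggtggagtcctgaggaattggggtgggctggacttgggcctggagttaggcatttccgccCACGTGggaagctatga
NAT10: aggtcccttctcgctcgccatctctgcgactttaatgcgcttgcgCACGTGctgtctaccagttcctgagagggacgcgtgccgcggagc
NOP14: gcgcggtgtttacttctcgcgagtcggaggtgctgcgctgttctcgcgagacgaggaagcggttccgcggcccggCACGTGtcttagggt
PNO1: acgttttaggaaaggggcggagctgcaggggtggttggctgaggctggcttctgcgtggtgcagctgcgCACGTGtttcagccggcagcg
RIOK1: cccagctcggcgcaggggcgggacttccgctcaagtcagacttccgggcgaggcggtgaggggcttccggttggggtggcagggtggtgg
WDR75: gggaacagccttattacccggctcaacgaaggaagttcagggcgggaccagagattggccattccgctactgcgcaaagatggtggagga
These stretches lie, for WDR43, at chr2:28894607-28894696 on the plus strand, for UTP18 at chr17:51260486-51260575 on the plus strand, for IMP4 at chr2:130342837-130342926 on the plus strand and for NOL6 at chr9:33473895-33473984 on the minus strand. NAT10 has chr11:34105569-34105658 on the plus strand, NOP14 chr4:2963377-2963466 on the minus strand and PNO1 chr2:68157828-68157917 on the plus strand. RIOK1 has chr6:7389748-7389837 on the plus strand and WDR75 chr2:189441414-189441503 on the plus strand. Each stretch holds the first 30 bases of its gene and the 60 bases before them.

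The 17 genes with CACGTG in the window had a median log2 fold change of -0.21 (range -0.47 to -0.06), and 14 of them were lower in DOX samples. The 21 genes without it had a median of -0.24 (range -0.41 to 0.02), and 15 of them were lower. Beside both counts stand 15.5% of all tested genes lower. The median GC content of the longest transcript was 51.3% in the genes with the letters and 43.1% in those without. With fold changes corrected for GC content and length, the medians were -0.20 with and -0.19 without the letters. After that correction 16 of the 17 and 15 of the 21 genes were lower, beside 11.3% of all genes. PNO1, with CACGTG at position 10, and RIOK1, with no CACGTG in its window, had the 2 largest falls of the 42 before that correction, and TSR1 and RRP7A after it. No test was run on this split, the binding of MYC was not measured, and a match of letters is not a bound site.

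**Figure D2:**
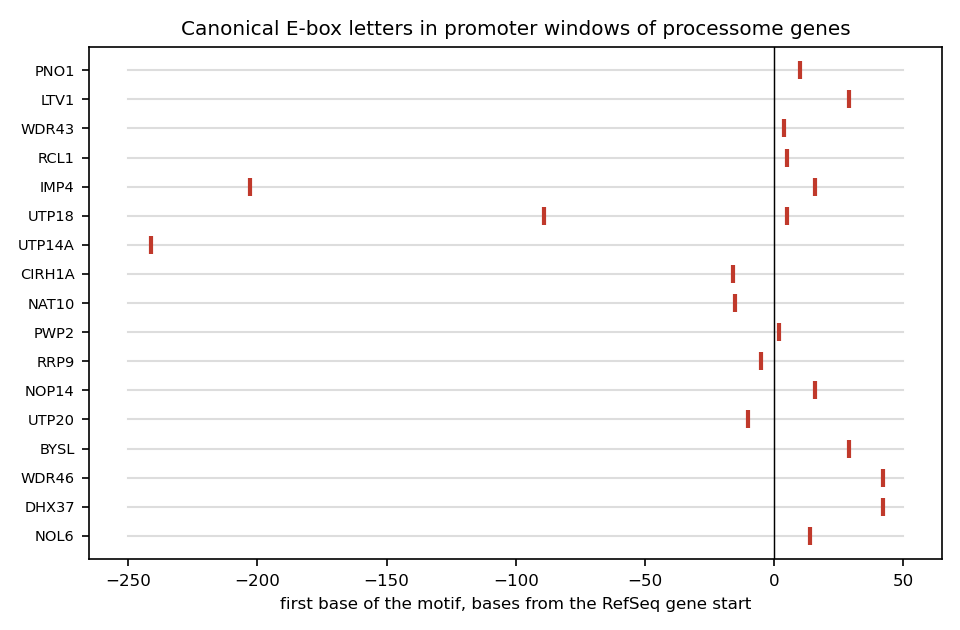
Position of each CACGTG (red tick, first base of the motif, in bases from the RefSeq gene start) in the promoter windows (grey lines) of the 17 processome genes that hold one, ordered by log2 fold change with the most negative at the top. Most ticks lie close to the start, between positions -16 and 42, and they occur in genes at the top and at the bottom of the order.

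The UTP-A complex, also called t-UTP, is the first module to bind the start of the precursor RNA and is also known for its link to transcription of the ribosomal DNA. All 6 of its genes were lower in DOX samples, beside 15.5% of all tested genes, with a median log2 fold change of -0.28. WDR75, a beta-propeller subunit, had 65.9, 64.4 and 62.9 CPM in the DOX samples, against 84.6, 81.1 and 82.8 CPM in the DMSO samples. The groups were well separated (log2 fold change -0.36, SE 0.0519, edgeR adjusted p = 1.48e-05). WDR43, another propeller subunit, whose window is printed above, had 72.7, 76.4 and 72.2 CPM in the DOX samples, against 91.8, 88.3 and 91.6 CPM in the DMSO samples (log2 fold change -0.30, SE 0.0514, edgeR adjusted p = 0.000130). NOL11, a subunit found in animals, had 128, 137 and 128 CPM in the DOX samples, against 159, 157 and 157 CPM in the DMSO samples (log2 fold change -0.27, SE 0.0491, edgeR adjusted p = 0.000216), and here too no sample of one group reached the other. UTP15, a propeller subunit, and CIRH1A, which encodes cirhin, also called UTP4, fell by 0.38 and 0.24 on the log2 scale. HEATR1, the long helical-repeat scaffold of the module, had 122, 124 and 122 CPM in the DOX samples, against 146, 128 and 140.5 CPM in the DMSO samples (log2 fold change -0.17, SE 0.0521, edgeR adjusted p = 0.0159). Its DOX samples were nearly equal, and the lowest DMSO sample, replicate 2, came close to them. The call of HEATR1 was lost in 5 of 15 alternatives, where the adjusted p was 0.0847 under upper-quartile scaling, 0.0831 at library size alone, 0.0531 without DOX replicate 1, 0.0595 without DOX replicate 3 and 0.114 without DMSO replicate 1. The other 5 genes of UTP-A were called lower in all 15.

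The UTP-B complex joins after UTP-A and helps to fix U3 on the precursor. Of its 6 genes, 5 were lower in DOX samples, beside 15.5% of all tested genes, and TBL3 was not called. The median log2 fold change of the 6 was -0.21. WDR3 had 59.2, 59.9 and 62.6 CPM in the DOX samples, against 78.7, 73.1 and 74.8 CPM in the DMSO samples (log2 fold change -0.32, SE 0.0538, edgeR adjusted p = 9.35e-05). UTP18 had 46.0, 47.2 and 49.3 CPM in the DOX samples, against 60.4, 56.2 and 55.0 CPM in the DMSO samples (log2 fold change -0.27, SE 0.0576, edgeR adjusted p = 0.000984). PWP2 had 62.8, 59.6 and 59.5 CPM in the DOX samples, against 70.4, 73.3 and 65.4 CPM in the DMSO samples (log2 fold change -0.20, SE 0.0559, edgeR adjusted p = 0.00809). In these 3 propeller subunits each DOX sample lay below each DMSO sample. WDR36, a subunit with a tandem propeller, had 51.0, 57.6 and 55.5 CPM in the DOX samples, against 63.3, 58.9 and 67.8 CPM in the DMSO samples (log2 fold change -0.21, SE 0.0609, edgeR adjusted p = 0.0102), so that the highest DOX sample and the lowest DMSO sample were close. UTP6, a helical-repeat subunit, had 39.2, 40.5 and 40.6 CPM in the DOX samples, against 45.7, 45.4 and 45.1 CPM in the DMSO samples (log2 fold change -0.18, SE 0.0566, edgeR adjusted p = 0.0183), with small spread in both groups. TBL3 had 58.3, 56.1 and 55.4 CPM in the DOX samples, against 54.9, 59.2 and 53.0 CPM in the DMSO samples, and the groups overlapped fully. The fold change of TBL3 was near 0 (log2 fold change 0.02, SE 0.0569, edgeR adjusted p = 0.796), with a 95% interval of -0.09 to 0.14 on the log2 scale. Its direction turned to -0.23 (adjusted p = 0.00143) after correction for GC content and length, and to -0.01 (adjusted p = 0.914) without DMSO replicate 3. The calls of UTP18 (adjusted p = 0.0617), WDR36 (0.0512) and UTP6 (0.167) were lost with that correction. That of UTP6 was lost also without DOX replicate 1 and DMSO replicate 2 together. WDR36 was also lost at 0.0521 with library size alone, 0.0773 without DOX replicate 1 and 0.0568 without DMSO replicate 3. UTP6 was lost at 0.0840 under upper-quartile scaling, 0.0798 at library size alone, 0.0712 without DOX replicate 1, 0.0506 without DOX replicate 3 and 0.0603 without DMSO replicate 1.

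RRP9 is a protein of the U3 particle itself, and MPHOSPH10, IMP3 and IMP4 form the MPP10 complex, in which IMP3 and IMP4 help U3 to pair with the precursor. Of these 4 genes, 3 were lower in DOX samples, beside 15.5% of all tested genes, with a median log2 fold change of -0.23. MPHOSPH10, the scaffold, had 67.4, 69.0 and 63.4 CPM in the DOX samples, against 83.8, 83.1 and 76.4 CPM in the DMSO samples (log2 fold change -0.28, SE 0.0552, edgeR adjusted p = 0.000403). IMP4 had 109, 102 and 98.8 CPM in the DOX samples, against 114, 138 and 123 CPM in the DMSO samples (log2 fold change -0.27, SE 0.0598, edgeR adjusted p = 0.00133). RRP9 had 47.3, 43.4 and 46.2 CPM in the DOX samples, against 48.5, 56.9 and 51.0 CPM in the DMSO samples (log2 fold change -0.19, SE 0.0627, edgeR adjusted p = 0.0221). The DOX samples were the lower ones in each of the 3, but in RRP9 the highest DOX sample and the lowest DMSO sample nearly met. IMP3 had 50.5, 43.7 and 51.9 CPM in the DOX samples, against 50.1, 62.0 and 48.6 CPM in the DMSO samples, with overlapping groups (log2 fold change -0.14, SE 0.0760, edgeR adjusted p = 0.177). DMSO replicate 2 was the highest sample in IMP4, RRP9 and IMP3. The call of RRP9 was lost, with an adjusted p of 0.0859 under upper-quartile scaling, 0.0755 at library size alone, 0.107 without DOX replicate 2, 0.0521 without DOX replicate 3 and 0.126 without DMSO replicate 2, and that of MPHOSPH10 with 0.0754 after the GC content and length correction. IMP3 passed as lower after the same correction, at -0.20 (adjusted p = 0.0293). The call of RRP9 was lost also without DOX replicate 1 and DMSO replicate 2 together.

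NOL6 and RRP7A form the small UTP22-RRP7 module of the processome. RRP7A had 76.7, 80.3 and 75.2 CPM in the DOX samples, against 86.4, 96.5 and 96.2 CPM in the DMSO samples and was lower in DOX samples, with no overlap (log2 fold change -0.27, SE 0.0549, edgeR adjusted p = 0.000735). Its near copy RRP7B had 656, 669 and 644 counts in the DOX samples and 608, 549 and 577 counts in the DMSO samples, and reads shared by the pair cannot be assigned. These counts are not scaled to library size, and each DOX library was larger than each DMSO library. NOL6 had 122, 109 and 117 CPM in the DOX samples, against 119, 123 and 121 CPM in the DMSO samples, with DOX replicate 1 among the DMSO samples (log2 fold change -0.06, SE 0.0518, edgeR adjusted p = 0.393). After correction for GC content and length NOL6 passed as lower, at -0.20 (adjusted p = 0.00178).

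Enzymes and their partners cut, modify or remodel the precursor. Of 6 such genes 4 were lower in DOX samples, beside 15.5% of all tested genes, with a median log2 fold change of -0.23. In all 6 each DOX sample lay below each DMSO sample, which held for 21.0% of all tested genes. NAT10, the acetyltransferase that modifies cytidines of the 18S rRNA, had 211, 197 and 201 CPM in the DOX samples, against 237, 243 and 226 CPM in the DMSO samples (log2 fold change -0.21, SE 0.0495, edgeR adjusted p = 0.00201). EMG1, the methyltransferase of a modified uridine, fell by 0.27 on the log2 scale. RCL1, the cyclase-like partner of the GTPase BMS1, had 23.6, 22.6 and 23.4 CPM in the DOX samples, against 27.8, 27.6 and 28.8 CPM in the DMSO samples (log2 fold change -0.27, SE 0.0638, edgeR adjusted p = 0.00219). BMS1 itself had 121, 126 and 123 CPM in the DOX samples, against 143, 135 and 126 CPM in the DMSO samples and was not called (log2 fold change -0.13, SE 0.0523, edgeR adjusted p = 0.0678). The 3 DOX samples of BMS1 lay just below the lowest DMSO sample. The pseudogene BMS1P5 had 140, 184 and 162 counts in the DOX samples and 131, 107 and 106 counts in the DMSO samples. Its counts, too, are not scaled to library size. UTP14A, whose yeast counterpart activates the helicase that DHX37 resembles, had 66.2, 62.3 and 63.1 CPM in the DOX samples, against 79.0, 77.6 and 70.4 CPM in the DMSO samples (log2 fold change -0.25, SE 0.0559, edgeR adjusted p = 0.00177). Its retrogene copy UTP14C had 21.1, 21.5 and 22.9 CPM in the DOX samples, against 21.1, 20.3 and 22.6 CPM in the DMSO samples. These groups overlapped (log2 fold change 0.03, SE 0.0699, edgeR adjusted p = 0.778). DHX37, whose yeast counterpart Dhr1 pulls U3 off the precursor, had 116, 119 and 119.8 CPM in the DOX samples, against 126, 126 and 122 CPM in the DMSO samples and was not called (log2 fold change -0.08, SE 0.0485, edgeR adjusted p = 0.240). All 4 calls held in the 15 alternatives. DHX37 passed as lower, at -0.25 (adjusted p = 0.000243), after correction for GC content and length.

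A further 10 genes encode structural factors of the 90S particle outside these modules. Of the 10, 7 were lower in DOX samples, beside 15.5% of all tested genes, with a median log2 fold change of -0.18. DCAF13, a propeller protein whose yeast counterpart is Sof1, had 58.3, 61.5 and 62.0 CPM in the DOX samples, against 74.8, 77.6 and 76.5 CPM in the DMSO samples (log2 fold change -0.33, SE 0.0529, edgeR adjusted p = 4.84e-05). UTP11L had 63.8, 62.3 and 60.1 CPM in the DOX samples, against 78.6, 82.0 and 74.6 CPM in the DMSO samples (log2 fold change -0.34, SE 0.0543, edgeR adjusted p = 5.56e-05). KRR1, an RNA-binding protein with KH domains, had 38.4, 41.1 and 39.7 CPM in the DOX samples, against 49.0, 46.3 and 45.7 CPM in the DMSO samples (log2 fold change -0.24, SE 0.0585, edgeR adjusted p = 0.00268). These 3 genes had well separated groups, and their calls held in all 15 alternatives. NOP14, which binds NOC4L, had 128, 125 and 124 CPM in the DOX samples, against 148, 153 and 128 CPM in the DMSO samples (log2 fold change -0.19, SE 0.0565, edgeR adjusted p = 0.0131). UTP20, a very long helical-repeat protein, had 104, 105 and 103 CPM in the DOX samples, against 125, 107 and 120.5 CPM in the DMSO samples (log2 fold change -0.18, SE 0.0550, edgeR adjusted p = 0.0170). In NOP14 and UTP20 a single DMSO sample, replicate 3 of NOP14 and replicate 2 of UTP20, lay close to the DOX samples. NOL10, the counterpart of yeast Enp2, had 30.3, 29.3 and 32.3 CPM in the DOX samples, against 35.1, 32.4 and 36.6 CPM in the DMSO samples (log2 fold change -0.18, SE 0.0649, edgeR adjusted p = 0.0381). PDCD11, the counterpart of yeast Rrp5, which is needed for both subunits, had 147, 147 and 153 CPM in the DOX samples, against 163, 164 and 159.6 CPM in the DMSO samples (log2 fold change -0.12, SE 0.0477, edgeR adjusted p = 0.0495), just inside the threshold.

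The other 3 structural genes were not called. WDR46 had 59.8, 58.6 and 59.4 CPM in the DOX samples, against 67.0, 66.4 and 61.1 CPM in the DMSO samples, with no overlap (log2 fold change -0.13, SE 0.0548, edgeR adjusted p = 0.0766). UTP3, the counterpart of yeast Sas10, had 58.5, 64.8 and 65.0 CPM in the DOX samples, against 69.7, 72.8 and 62.1 CPM in the DMSO samples, with overlap (log2 fold change -0.12, SE 0.0611, edgeR adjusted p = 0.141). NOC4L had 58.0, 57.4 and 53.9 CPM in the DOX samples, against 59.3, 62.1 and 58.6 CPM in the DMSO samples, with a narrow gap between the groups (log2 fold change -0.09, SE 0.0553, edgeR adjusted p = 0.240). After correction for GC content and length WDR46 (-0.17, adjusted p = 0.0111) and NOC4L (-0.19, adjusted p = 0.00625) passed as lower, while UTP3 turned to 0.02 (adjusted p = 0.823). Without DOX replicate 1 and DMSO replicate 2 together the calls of NOP14 and PDCD11 were lost. Among the called genes of this group, NOP14 was lost with an adjusted p of 0.0628 under upper-quartile scaling, 0.0516 at library size alone, 0.0605 without DOX replicate 3, 0.0742 without DMSO replicate 1 and 0.0630 without DMSO replicate 2. UTP20 was lost with 0.0823 under upper-quartile scaling, 0.0845 at library size alone, 0.0657 without DOX replicate 3 and 0.134 without DMSO replicate 1. NOL10 was lost with 0.133 under upper-quartile scaling, 0.136 at library size alone, 0.0631 by DESeq2, 0.485 after the GC content and length correction, 0.100 without DOX replicate 1, 0.150 without DOX replicate 2, 0.109 without DMSO replicate 1 and 0.137 without DMSO replicate 3. PDCD11 was lost with 0.0507 with RLE size factors, 0.247 under upper-quartile scaling, 0.205 at library size alone, 0.0536 with no filter on low counts, 0.0891 with a replicate block, 0.137 without DOX replicate 1, 0.151 without DOX replicate 2, 0.0809 without DOX replicate 3, 0.117 without DMSO replicate 1 and 0.0785 without DMSO replicate 2.

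The pre-40S factors take part in the maturation of the pre-40S particle. Of 8 such genes 6 were lower in DOX samples, beside 15.5% of all tested genes. The median log2 fold change of the 8, -0.34, was the most negative of the role groups. After correction for GC content and length their median was -0.23, and that of the UTP22-RRP7 module, -0.28, was more negative. RIOK1, an atypical kinase of late cytoplasmic steps, had 40.4, 41.4 and 41.2 CPM in the DOX samples, against 52.4, 55.7 and 54.9 CPM in the DMSO samples (log2 fold change -0.41, SE 0.0564, edgeR adjusted p = 1.08e-05). LTV1, an assembly factor that must be phosphorylated to leave the particle, had 37.6, 41.1 and 40.1 CPM in the DOX samples, against 51.8, 50.9 and 51.6 CPM in the DMSO samples (log2 fold change -0.38, SE 0.0577, edgeR adjusted p = 3.37e-05). TSR1, a protein built like a GTPase, had 61.9, 67.3 and 68.5 CPM in the DOX samples, against 80.8, 85.9 and 85.5 CPM in the DMSO samples (log2 fold change -0.35, SE 0.0547, edgeR adjusted p = 4.12e-05). In all 3 the gap between the groups was wider than the spread within either. PNO1, the partner of the endonuclease NOB1, is named for its size of change, the largest of the 42 without the GC content and length correction, and was chosen after its values were seen. After the correction it stood at -0.30, and TSR1 had the largest change, -0.40. It had 14.5, 14.9 and 14.02 CPM in the DOX samples, against 19.4, 20.9 and 19.8 CPM in the DMSO samples (log2 fold change -0.47, SE 0.0734, edgeR adjusted p = 4.38e-05). RIOK2, a kinase related to RIOK1, had 19.0, 21.5 and 19.9 CPM in the DOX samples, against 26.2, 24.8 and 24.6 CPM in the DMSO samples (log2 fold change -0.33, SE 0.0692, edgeR adjusted p = 0.000935), again without overlap. BYSL, the counterpart of yeast Enp1, had 48.7, 45.7 and 44.0 CPM in the DOX samples, against 50.1, 57.4 and 48.7 CPM in the DMSO samples (log2 fold change -0.17, SE 0.0642, edgeR adjusted p = 0.0414), and its highest DOX and lowest DMSO samples were nearly equal.

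RRP12 and NOB1 were the pre-40S genes that were not called. RRP12, an export factor, had 76.6, 72.9 and 71.1 CPM in the DOX samples, against 78.5, 83.8 and 76.6 CPM in the DMSO samples (log2 fold change -0.12, SE 0.0541, edgeR adjusted p = 0.111), with DOX replicate 1 level with DMSO replicate 3. NOB1, which makes the last cut at the end of the 18S rRNA, had 86.7, 81.7 and 80.8 CPM in the DOX samples, against 85.04, 92.1 and 81.5 CPM in the DMSO samples (log2 fold change -0.05, SE 0.0551, edgeR adjusted p = 0.493), with overlap and a 95% interval of -0.17 to 0.06. NOB1 was not called in any of the 15 alternatives, while RRP12 passed as lower, at -0.25 (adjusted p = 0.000293), after correction for GC content and length. Without DOX replicate 1 and DMSO replicate 2 together the call of BYSL was lost. The call of RIOK2 was lost with an adjusted p of 0.0650 after the GC content and length correction. That of BYSL was lost with 0.144 under upper-quartile scaling, 0.124 at library size alone, 0.0569 by DESeq2, 0.0960 without DOX replicate 2, 0.181 without DOX replicate 3, 0.0529 without DMSO replicate 1 and 0.237 without DMSO replicate 2.

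**Figure D3:**
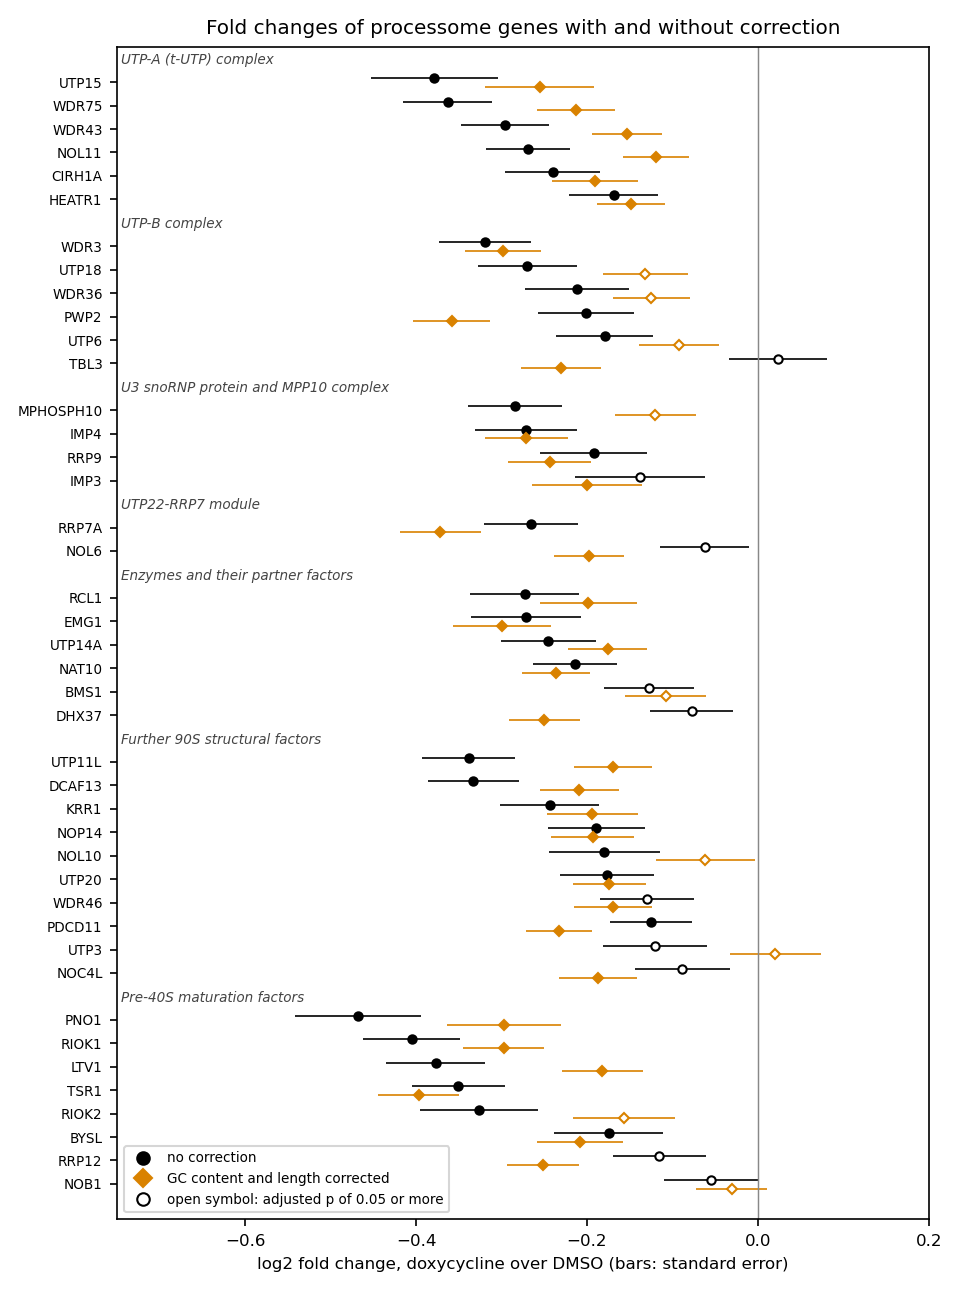
Log2 fold change (DOX over DMSO) of each processome gene with its standard error, as counted (black circles) and after correction for GC content and length (orange diamonds); open symbols have an adjusted p of 0.05 or more. Black circles are filled for 32 genes and orange diamonds for 33, and the 2 estimates differ most for TBL3.

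Proportions within a module were compared for 3 genes, which were chosen after their values were seen and were not tested. The log2 ratio of TBL3 to the mean of the other 5 UTP-B genes was 0.19, 0.10 and 0.07 in the DOX samples and -0.19, -0.03 and -0.20 in the DMSO samples. The ratio of PNO1 to the other 7 pre-40S genes was -1.72, -1.71 and -1.77 in the DOX samples and -1.55, -1.51 and -1.51 in the DMSO samples. The ratio of its partner NOB1 to the other 7 was 1.09 to 1.22 in the DOX samples and 0.82 to 0.93 in the DMSO samples. In all 3 genes the ratios of the DOX and DMSO samples did not overlap, with TBL3 and NOB1 higher and PNO1 lower in DOX samples. This was not particular to them. In the same role groups it held also for WDR3, UTP18, RRP12 and RIOK1, and in other role groups for genes such as HEATR1 and DHX37. The transcripts of TBL3 (63.8% GC) and NOB1 (54.5%) have more GC than that of PNO1 (41.6%), and the part of GC content in these ratios was not tested.

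Fold changes followed the GC content of the transcripts, in the processome genes and in all genes. Across the 42 genes, log2 fold change and GC content of the longest transcript had a Pearson r of 0.63 and a Spearman rho of 0.61. Across 15036 tested genes r was 0.34 and rho 0.41; genes share libraries and are not independent, so no p is given. When the processome genes were ordered by GC content into 3 sets of 14, all 14 of those with the least GC (36.0% to 42.3%) were lower in DOX samples, beside 29.1% of 3427 genes in the same GC range. In the middle set (42.3% to 51.6%) 12 of 14 were lower, beside 17.4% of 5165 genes. In the set with the most GC (53.1% to 64.8%) 6 of 14 were lower, beside 5.44% of 4707 genes. Medians of the sets were -0.31, -0.24 and -0.13, while those of all genes in the same ranges were -0.10, -0.04 and 0.11. In each range the median of the processome genes thus lay below that of all genes of like GC content.

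A correction that fits the GC content and length trend in each library and removes it left 33 processome genes lower and 0 higher, beside 11.3% of 15036 genes lower and 10.7% higher. With a replicate block added there were again 33 lower and 0 higher, beside 10.9% and 10.3% of genes. The median of the 42 after the correction was -0.20. A real change that runs with GC content would be removed along with a technical one. Called with and without it were 26 genes. A further 7 were called after it alone: TBL3, IMP3, NOL6, DHX37, WDR46, NOC4L and RRP12, whose GC contents run from 56.1% to 64.8%. Another 6 were called without it alone, and were lost also with the block added: UTP6, UTP18, WDR36, MPHOSPH10, NOL10 and RIOK2, with GC contents from 36.5% to 45.9%. BMS1, UTP3 and NOB1 were called by neither. In the 3 sets by GC content, from the least to the most, the corrected calls were 11, 9 and 13 of 14. Across the 42 genes, GC content and corrected log2 fold change had a Pearson r of -0.32 and a Spearman rho of -0.33. Across the 15036 genes these were 0.04 and 0.01. The corrected values of the 42 thus still ran with GC content, in the opposite direction.

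**Figure D4:**
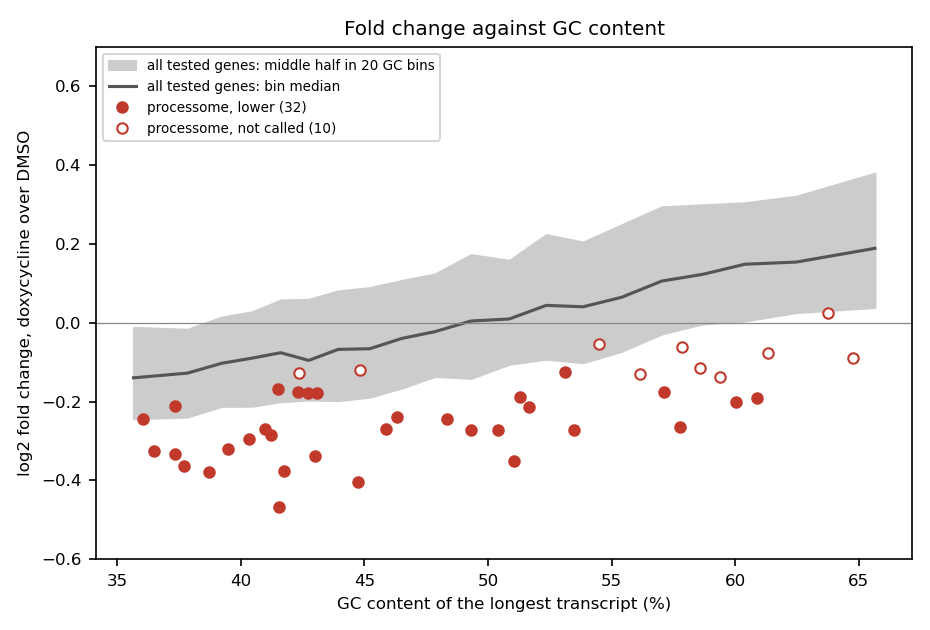
Log2 fold change (DOX over DMSO) against GC content of the longest transcript for the 42 processome genes (red; filled where lower, open where not called), with the median and the range between the quartiles of all tested genes in 20 bins of GC content (grey line and band). The grey line climbs with GC content, and the red points climb with it while most stay below the band.

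The counting of overlapping genes bears on some of these values, since the sources used here leave the strand setting of the count table unstated. By GENCODE 29 the exons of 12 processome genes overlap those of a gene on the opposite strand with a mean of at least 10 counts: CIRH1A, DCAF13, EMG1, HEATR1, IMP3, IMP4, KRR1, NOP14, RRP7A, TSR1, UTP15 and WDR46. The most abundant partners were SGSM2 beside TSR1, LGALS8 beside HEATR1 and LPCAT3 beside EMG1. Of these 12 genes, 10 were lower in DOX samples, beside 15.5% of all tested genes. Near copies were looked for, by name, only for BMS1, RRP7A and UTP14A. Leaving these 3 aside, 28 genes had no such partner, and 21 of them were lower, beside the same 15.5%. The part of overlapping exons and of copies in these calls was not tested.

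In the authors' deposited table, which holds their DESeq2 comparison, all 42 processome genes had the same direction as in the edgeR fit. At an adjusted p under 0.05 the authors' deposited table has 30 of them lower and 0 higher, beside 15.6% of its genes lower and 9.79% higher. BYSL and NOL10 are the genes called here and not there.

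Related lists were described from the same fit, with no test of the lists themselves. Among 28 other processome and pre-40S genes, 14 were lower in DOX samples and 0 were higher, with a median log2 fold change of -0.18. Their smallest p-values were those of NOP58, a core protein of U3 and other box C/D particles (-0.54), TRMT112, a methyltransferase cofactor (-0.34), and FCF1, a processome protein with a PIN domain (-0.35). NOP58 had 114, 127 and 112 CPM in the DOX samples, against 148, 183 and 183 CPM in the DMSO samples (log2 fold change -0.54, SE 0.0657, edgeR adjusted p = 1.63e-06), a larger fall than that of any of the 42 before correction; after it NOP58 stood at -0.36 and TSR1 at -0.40. Among 45 assembly factors of the large subunit 21 were lower and 0 higher, with a median of -0.15, led by CEBPZ (-0.49), MRTO4 (-0.40) and RPF2 (-0.41). Among 31 small subunit ribosomal proteins 13 were lower and 0 higher, with a median of -0.12, led by RPS13 (-0.28), RPS3A (-0.28) and RPS15A (-0.27). All 4 shares exceed the 15.5% of all tested genes, and the processome genes have the highest, 76.2%. After correction for GC content and length 10 of 26 other processome and pre-40S genes and 22 of 44 large subunit factors were lower and 0 were higher. Of the 31 ribosomal proteins 5 were then lower and 1 higher, and their median was -0.03. Beside these corrected counts stand 11.3% of all genes lower and 10.7% higher. Genes with a promoter window numbered 21, 38 and 25 in the 3 lists, in the order given. CACGTG stood in the window of 6 (28.6%), 12 (31.6%) and 2 (8.0%) of them, beside 8.77% of all genes with a window.

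**Figure D5:**
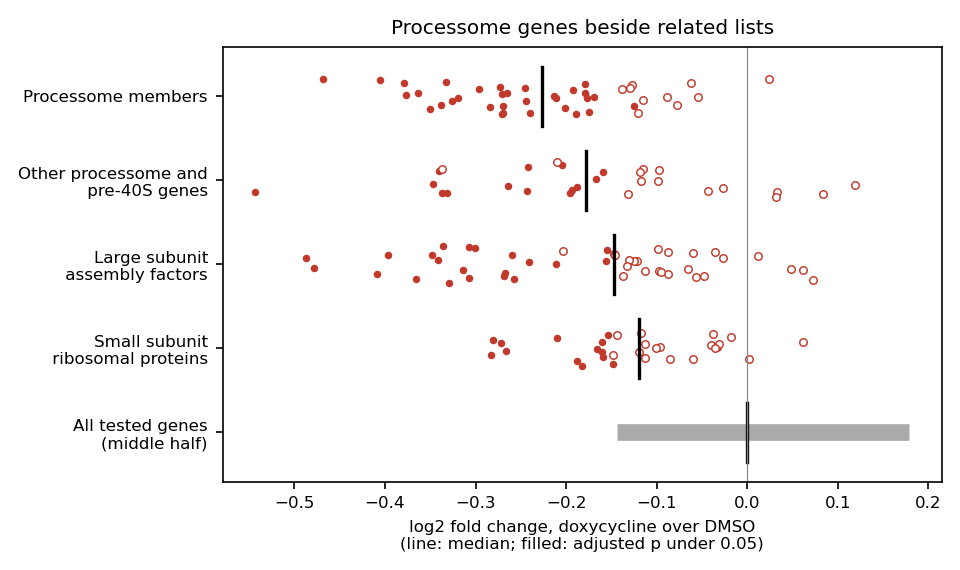
Log2 fold change (DOX over DMSO) of each processome gene and of each gene in 3 related lists (points, filled where the adjusted p is under 0.05; black line, median), with the median and the range between the quartiles of all tested genes at the bottom. The medians are -0.23, -0.18, -0.15 and -0.12 from top to bottom, against -0.00 for all tested genes.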

How the data were processed

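The authors deposited raw gene counts, not normalized, and their own DESeq2 results. The deposited results give each gene's mean signal, log2 fold change, its standard error and Wald statistic (scores) and p-values. Per the submitters' processing notes the tools were STAR 2.5.2a, featureCounts and DESeq2 1.12.4, and the build was hg19, with no roles stated. Libraries were strand-specific and paired-end, per the labels' protocols; how the counting treated strand, and with which annotation, is not given in the sources used here.

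From the deposited counts, genes were kept by filterByExpr (15492 genes, at least 99.88% of each library's counts), scaled by TMM and tested for treatment, with no other term, by the quasi-likelihood test of edgeR 4.0.16 in R 4.3.3. Adjusted p-values are Benjamini-Hochberg over all genes tested, with a threshold of 0.05. A standard error (SE) is the size of the log2 fold change over the square root of F. For the correction, each library's deviation in log2 CPM (prior count 2) was fitted by natural splines in GC content and in log2 length (5 degrees of freedom each), which entered as an offset for 15036 genes (97.1% of those tested); values come from the longest GENCODE 29 transcript. The fits were tested on simulated counts. Alternatives numbered 15: RLE, upper-quartile or library-size scaling, no filter, DESeq2 1.42.0, a replicate block, the correction with and without the block, each replicate left out, and DOX replicate 1 with DMSO replicate 2 left out, the last chosen after seeing the data.

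The genes, lists and tests were chosen with earlier results of these data known. CPM in each sample is given for the 3 genes of each role group with the smallest p, for those not called and for those whose call an alternative ends; of other lists the 3 with the smallest p are named. The values of same-numbered DOX and DMSO samples gave no sign of pairing (closing section). GC content and gene overlaps are from an annotation of GRCh38, so no coordinates come from the count table. A further list of cell type markers is not reported here.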

Additional observations from a re-analysis of the deposited data

How the results depend on the processing

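Counts of processome genes lower in DOX than in DMSO samples stayed within 1.5 times the 32 reported in all 15 alternatives, between 23 with library size alone and 34 without DMSO replicate 3, and 0 were higher in each. Of the 32 calls, 20 held in all 15. Without DOX replicate 1 and DMSO replicate 2 together, chosen after seeing the data, 27 were lower. With each replicate left out in turn, the count was 25 to 34 and the median log2 fold change -0.25 to -0.21. The median was -0.18 both for upper-quartile scaling and for library size alone, -0.24 without a filter, and -0.20 with the GC content and length correction, with or without the replicate block. TBL3 reversed to -0.23 with that correction, also with the block, and ran from -0.012 without DMSO replicate 3 to 0.067 without DMSO replicate 2. UTP3 reversed to 0.021 with the correction, also with the block. MYC passed as higher, at 0.14, with library size alone and under upper-quartile scaling. Over all genes, 1585 were lower under upper-quartile scaling, and DESeq2 called 1348 higher. Of the other processome and pre-40S genes 9 were lower under upper-quartile scaling, and 1 was higher there, by library size alone, and when DMSO replicate 2 was left out, by itself or with DOX replicate 1; over single replicates left out it was 0 to 1. Small subunit ribosomal proteins numbered 5 lower with either of these scalings and with the correction, where 1 was higher, 6 with the correction and block, 6 to 16 with single replicates left out, and 6 without both libraries. The cause of these shifts was not tested.

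Replicate numbers in the labels are shared by the groups, but deviations of same-numbered samples correlated at -0.06, -0.23 and 0.09 over 10864 genes. DOX replicate 1 and DMSO replicate 2 correlated at 0.32. These values gave no sign of pairing by number. With 3 samples a group they cannot show whether same-numbered samples were handled together. With the replicate block 31 processome genes were lower and the median was -0.23. The count of CACGTG promoters was 16 of 38 with windows of 150 bases before the start. With 3 samples a group, the precision of a gene's log2 fold change is the SE printed beside it.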
